A study of Mus musculus with 8 samples.

Results

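The genes described here are 34 mouse genes of protein folding and stress in the endoplasmic reticulum, the compartment where secreted and membrane proteins enter the secretory route. They were chosen by name, and a gene was read through probe sets whose platform annotation gives that symbol alone. Of the 34, 33 had such a probe set, out of 18193 genes with one on the arrays. Sec61g, a small subunit of the protein channel of this membrane, was carried only by a probe set annotated with several genes and has no value here. All 33 passed the filter on dim genes and were among the 13223 genes tested.

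The cells were of the mouse line 32Dcl3, myeloid progenitors that depend on IL-3 (interleukin-3) for growth and turn towards granulocytes under G-CSF, the granulocyte colony-stimulating factor. The first culture carried pMYs-FLAG-ASXL1-MT-IG, a retroviral vector with a FLAG-tagged mutant of the chromatin regulator ASXL1, and is called ASXL1-MT. The other carried the empty vector pMYs-IG and is called mock. Each culture was profiled in G-CSF for 2, 6 and 24 h and in IL-3, with 1 Affymetrix array per condition and 8 arrays in all. Every array is therefore of transduced cells of the same line, and the labels name neither separate clones nor repeat transductions.

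Cells of the secretory pathway watch the load of unfolded protein in this compartment through 3 membrane sensors. IRE1 alpha (Ern1) is a kinase and ribonuclease that splices the mRNA of the transcription factor XBP1, PERK (Eif2ak3) phosphorylates the translation factor eIF2 alpha, and ATF6 is released by cleavage to become a transcription factor itself. Their targets include chaperones, disulfide isomerases, the export and degradation machinery for misfolded proteins, and the channel that imports new chains. Granulocyte precursors pass large amounts of granule protein through this compartment. The arrays measured transcript abundance, so neither Xbp1 splicing nor sensor activity was read.

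The values are log2 expression of a probe set minus its own median over the 8 arrays, so 0 is a gene's middle value and levels of different genes cannot be set against each other. An estimate of the level before centring placed 31 of the 33 genes at 8 or more on the log2 scale. The exceptions were Ppp1r15a at 7.1 and Wfs1 at 6.2. Differences over the 2 cultures come from a fit of all 8 arrays on time point and vector in limma, given as log2 difference ± standard error, with Benjamini-Hochberg adjustment over all 13223 genes and a threshold of 0.05. With 1 array per condition the cultures stand in for replicates of a time point. Likewise, the time points of a culture stand in for replicates of its vector. The p-values therefore rest on how far these arrays depart from a time effect plus a vector effect, not on a spread between replicate arrays. In this fit a vector effect that changes with time is counted as error. In such bulk RNA, fewer cells of a type and less RNA per cell cannot be told apart.

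The label was checked against markers. Of 11 genes of myeloid progenitors and granulocytes, 8 had an estimated level of 8 or more, while Kit at 3.4 and Cd34 at 5.0 were too dim to be tested. The granule genes Elane and Ngp were higher at 24 h in G-CSF by 2.26 ± 0.14 and 4.95 ± 0.26 (limma adjusted p = 0.00681 and 0.00659). Of 5 mast cell, basophil and eosinophil genes, 3 reached level 8 and 4 were tested, and all 4 were higher at 24 h, by 0.77 for Mcpt8 up to 6.51 for Prg2 (limma adjusted p at most 0.014). Of 4 macrophage genes, 2 reached level 8. Of these Csf1r was higher by 1.65 ± 0.08 (limma adjusted p = 0.00642) and Adgre1 differed by -0.10 ± 0.09 (0.473), while the dimmer Mrc1 was higher by 0.65 ± 0.11 (0.0224). No erythroid gene reached level 8, and Klf1, at level 6.4, was lower by 1.12 on the log2 scale (difference -1.12 ± 0.12). Of 5 lymphoid and plasma cell genes on the array only Ighm reached 8, at 8.0, and of 3 fibroblast genes only Col1a2, at 8.1, and neither passed the test. The part of these lineages in the changes of the endoplasmic reticulum genes at 24 h was not tested. Probe sets for Asxl1 itself differed between ASXL1-MT and mock by -0.34, -0.04 and 0.68, with limma adjusted p of at least 0.907, and the labels do not say whether they read the transgene.

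A regulatory sequence known from genes of this pathway is the endoplasmic reticulum stress element, a promoter site known to bind ATF6 together with the CCAAT-binding factor NF-Y. Both strands of the RefSeq promoters (mouse build GRCm38.p6, 300 bases each, most of them before the annotated start) were searched for CCAAT and CCACG separated by 9 bases of any kind. They were also searched for a second form of the element, ATTGG and CCACG separated by a single base of any kind, and for the unfolded protein response element TGACGTGG, a site associated with XBP1. The promoter table held 27 of the 34 members. The first form lay in 8 of these 27 genes, against 37 of all 27025 genes in the table, or 39 of 32851 promoters (0.119%). The second form lay in 2 of the 27, against 12 of all genes, each in 1 promoter (0.0365%). TGACGTGG lay in none of the 27, against 193 of all genes, or 222 promoters (0.676%). No site of a member overlapped a site of another motif. The sites are shown because members with and without them are set side by side further on. The fixed letters are in capitals, and each is read 5′ to 3′ on the strand given.

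Hspa5 chr2:34772025-34772043 plus strand: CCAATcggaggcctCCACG
Calr chr8:84847075-84847093 plus strand: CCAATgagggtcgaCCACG
Hsp90b1 chr10:86705638-86705656 minus strand: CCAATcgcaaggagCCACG
Hsp90b1 chr10:86705533-86705551 plus strand: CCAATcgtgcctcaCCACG
Canx chr11:50325800-50325818 minus strand: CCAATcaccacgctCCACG
Pdia6 chr12:17266491-17266509 plus strand: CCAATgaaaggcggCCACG
Dnajc3 chr14:118937827-118937845 plus strand: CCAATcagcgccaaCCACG
Creld2 chr15:88819520-88819538 minus strand: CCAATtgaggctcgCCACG
Syvn1 chr19:6046532-6046550 plus strand: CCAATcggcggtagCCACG
Herpud1 chr8:94386377-94386387 plus strand: ATTGGgCCACG
Dnajb11 chr16:22857852-22857862 plus strand: ATTGGcCCACG

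The Hspa5 site began 65 bases before the annotated start and the Syvn1 site 44 bases before it. The sites of Calr and Creld2 and the plus-strand site of Hsp90b1 ran opposite to the gene. The Dnajb11 site lay just after its start. A match says only that these letters are present.

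Promoters of 4 members with different profiles follow for comparison, from RefSeq on GRCm38.p6, 5′ to 3′ along the gene, with the element in capitals. Hspa5 lies at chr2:34771840-34772139 on the plus strand and Creld2 at chr15:88819396-88819695 on the plus strand, where the element reads as its reverse complement. Dnajb9 lies at chr12:44210019-44210318 and Ern1 at chr11:106487747-106488046, both on the minus strand, and neither window holds any of the motifs.

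Hspa5 promoter: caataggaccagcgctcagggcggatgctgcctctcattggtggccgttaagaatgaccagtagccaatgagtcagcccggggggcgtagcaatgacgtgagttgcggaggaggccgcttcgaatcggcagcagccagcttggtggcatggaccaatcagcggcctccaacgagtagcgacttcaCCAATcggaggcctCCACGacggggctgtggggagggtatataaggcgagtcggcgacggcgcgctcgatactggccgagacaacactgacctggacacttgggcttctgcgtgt
Creld2 promoter: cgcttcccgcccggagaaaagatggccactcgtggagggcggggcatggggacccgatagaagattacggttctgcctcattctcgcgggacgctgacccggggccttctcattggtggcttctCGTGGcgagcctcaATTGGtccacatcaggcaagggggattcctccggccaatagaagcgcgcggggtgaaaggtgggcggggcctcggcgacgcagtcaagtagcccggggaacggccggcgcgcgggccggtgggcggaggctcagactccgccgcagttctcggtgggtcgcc
Dnajb9 promoter: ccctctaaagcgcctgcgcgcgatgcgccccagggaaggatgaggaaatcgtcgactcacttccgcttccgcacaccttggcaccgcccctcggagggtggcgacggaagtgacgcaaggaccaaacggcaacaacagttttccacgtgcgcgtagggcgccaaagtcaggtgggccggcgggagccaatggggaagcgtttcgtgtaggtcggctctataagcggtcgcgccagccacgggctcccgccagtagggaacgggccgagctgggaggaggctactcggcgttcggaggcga
Ern1 promoter: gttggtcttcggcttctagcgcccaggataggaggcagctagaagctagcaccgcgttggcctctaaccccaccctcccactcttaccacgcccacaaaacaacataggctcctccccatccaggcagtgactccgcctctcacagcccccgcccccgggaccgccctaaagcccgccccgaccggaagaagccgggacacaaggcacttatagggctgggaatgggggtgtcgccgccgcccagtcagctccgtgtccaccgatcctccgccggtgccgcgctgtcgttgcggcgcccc

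In outline, 3 of 4 genes of sensors and transcription factors rose by 24 h in G-CSF, as read from the probe set used for each. With their probe sets averaged, these 3 (Ern1, Atf6 and Eif2ak3) missed the threshold at 24 h (limma adjusted p = 0.565, 0.374 and 0.80). Of 6 degradation genes 2 rose at 6 h, and with the mean of probe sets both missed the threshold (0.0618 and 0.131). Of 9 chaperones and co-chaperones 3 fell by 24 h while 1 rose. At 2 h none of the 33 genes passed the test in limma, and none of the 13223 genes did (0%). At an unadjusted p under 0.05 there were 5 of the 33 and 1052 of all genes. At 6 h in G-CSF against IL-3, 3 of the 33 genes were higher and 0 lower, which is 9.09% called against 16.1% of all genes tested (9.16% higher and 6.9% lower). At 24 h 5 were higher and 3 lower, which is 24.2% called against 25.3% of all genes (14% higher and 11.3% lower). Neither share exceeds that of all genes. The median difference of the 33 genes was 0.16 at 6 h, against 0.11 for all genes, and -0.0045 at 24 h, against 0.09. No 6 h call held when any 1 of the 8 arrays was left out, and no 24 h call held without either array in IL-3 or either array at 24 h. Without an array at 2 or 6 h, Ern1, Dnajb9 and Atf6 were still called higher at 24 h, and without an array at 2 h Hyou1 and Dnajb11 were still called lower. The Ern1 difference ranged over these fits from 1.78 to 2.13 at 6 h and from 1.57 to 2.10 at 24 h.

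**Figure D1:**
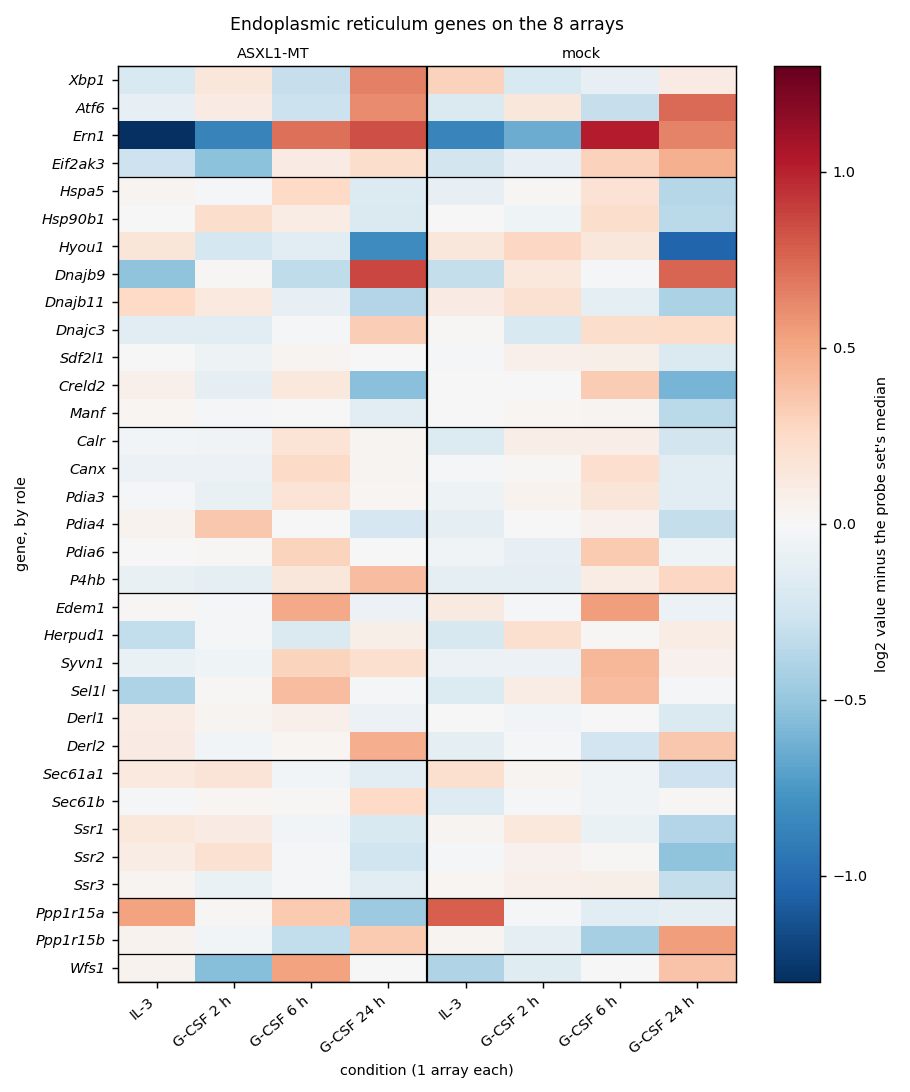
Values of 33 endoplasmic reticulum genes (rows, grouped by role between the black lines) on the 8 arrays (columns, ASXL1-MT left of mock, each in the order IL-3, then G-CSF 2, 6 and 24 h), as log2 value minus the probe set's median on a colour scale from blue (low) to red (high). The 24 h columns of both cultures are red for Ern1, Atf6 and Dnajb9 and blue for Hyou1 and Creld2.

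The sign of each member's change from IL-3 was compared between the cultures. The same count was not made over all genes, so the agreement cannot be called particular to the members. At 2 h the change from IL-3 had the same sign in both cultures for 9 genes that were higher and 5 that were lower, and opposite signs for 19. At 6 h there were 19 higher, 9 lower and 5 opposite. At 24 h there were 12 higher, 15 lower and 6 opposite.

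Of the 4 genes of sensors and transcription factors, 3 rose at 24 h as read from the probe set used, where 14% of all genes were called higher. The fourth, Xbp1, did not pass the test. Ern1, the most conserved sensor, read -1.32, -0.87, 0.72 and 0.84 in ASXL1-MT cells in IL-3 and at 2, 6 and 24 h of G-CSF. In mock cells it read -0.86, -0.64, 1.02 and 0.64. All 4 arrays at 6 and 24 h lay above all 4 arrays in IL-3 and at 2 h. The difference from IL-3 was 1.96 ± 0.19 at 6 h and 1.83 ± 0.19 at 24 h, a fold of 3.57 (limma adjusted p = 0.0144 and 0.0101). Among the 33 genes as read here this was the largest change at either time, but with its 5 probe sets averaged Ern1 differed by 0.25 at 24 h (adjusted p = 0.565).

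Atf6, the sensor that becomes a transcription factor, moved later. It read -0.11, 0.11, -0.28 and 0.62 in ASXL1-MT cells and -0.19, 0.15, -0.30 and 0.74 in mock cells. The pair of 24 h arrays lay above the other 6, and the pair at 6 h was the lowest. Atf6 rose by 0.83 ± 0.09 at 24 h against IL-3 (limma adjusted p = 0.0113) and by 0.97 ± 0.09 at 24 h against 6 h (0.0337). Its difference at 6 h against 2 h was -0.42 ± 0.09 (0.0583). Another Atf6 probe set, also at an estimated level of 8 or more, gave -0.53 at 24 h against IL-3. With its 3 probe sets averaged Atf6 differed by 0.29 at 24 h (adjusted p = 0.374).

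Eif2ak3, the PERK kinase, read -0.27, -0.54, 0.10 and 0.23 in ASXL1-MT cells and -0.24, -0.10, 0.30 and 0.46 in mock cells. As for Ern1, its arrays at 6 and 24 h lay above those in IL-3 and at 2 h. It rose by 0.60 ± 0.13 at 24 h (limma adjusted p = 0.0378), and its difference at 6 h was 0.46 ± 0.13 (0.0868). Averaged with its dim further probe sets, Eif2ak3 differed by 0.27 at 24 h (adjusted p = 0.80).

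Xbp1, the factor whose mRNA IRE1 splices, read -0.20, 0.15, -0.30 and 0.66 in ASXL1-MT cells and 0.30, -0.19, -0.11 and 0.11 in mock cells. At 24 h it differed from IL-3 by 0.86 in ASXL1-MT cells and -0.19 in mock cells, and the fitted difference over both was 0.34 ± 0.30 (limma adjusted p = 0.479). Its other 3 probe sets, as bright by the estimate, gave 0.44 to 0.66 at 24 h and were higher in both cultures. In mock cells those 3 read 0.08, 0.10 and 0.08 in IL-3 and 0.53, 0.72 and 0.45 at 24 h. The opposite signs of the cultures were therefore seen in the probe set used and not in the others. All 4 lay between -0.33 and -0.24 at 6 h. The mean of all 4 had a difference of 0.47 ± 0.14 at 24 h (adjusted p = 0.0881).

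**Figure D2:**
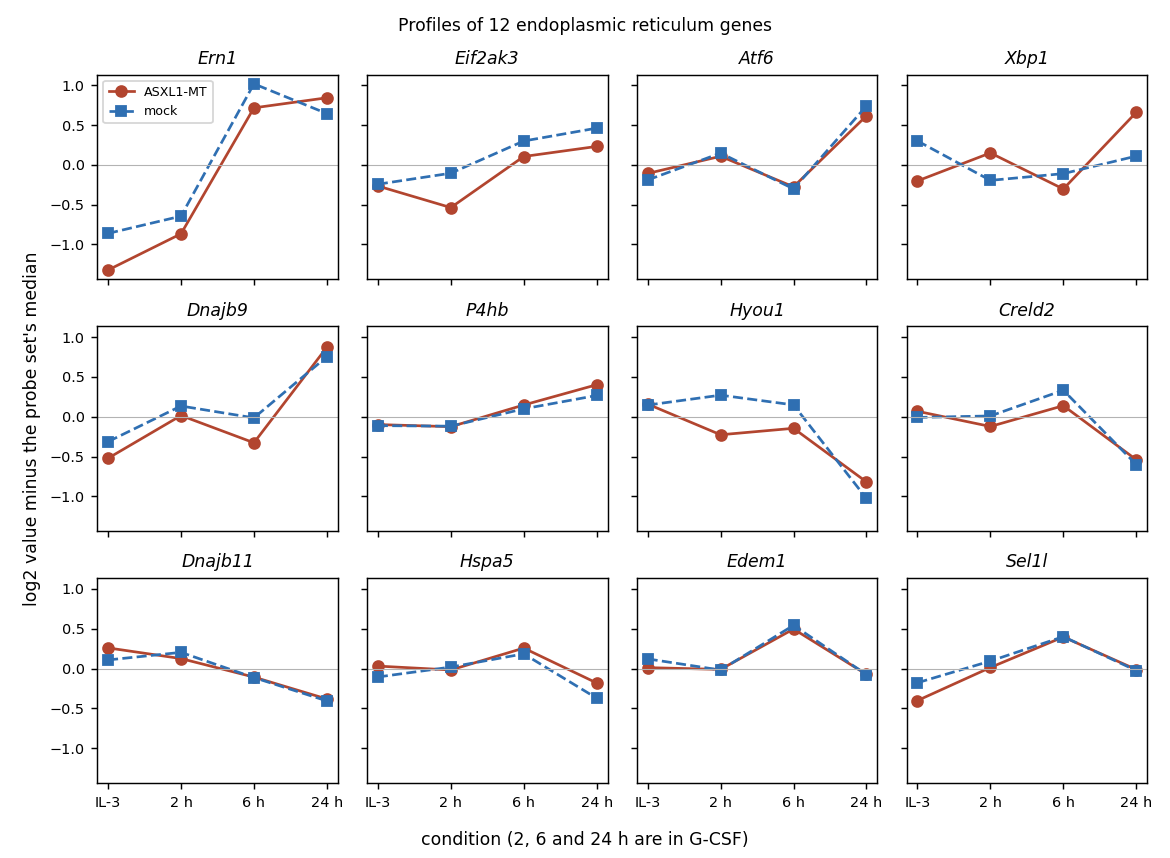
Profiles of 12 genes, with condition on the horizontal axis (IL-3, then 2, 6 and 24 h in G-CSF) and log2 value minus the probe set's median on the vertical axis, the same in every panel. Red circles and solid lines are ASXL1-MT, blue squares and dashed lines mock, 1 array per point. Ern1 is high from 6 h, Atf6 and Dnajb9 are high at 24 h, Edem1 and Sel1l peak at 6 h, and Hyou1, Creld2 and Dnajb11 are lowest at 24 h.

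Of the 9 chaperones and co-chaperones, 1 was higher and 3 lower at 24 h, where 14% of all genes were called higher and 11.3% lower. In all 7 of the 9 lay below 0, beside 5884 of all 13223 genes. Dnajb9 (ERdj4), a co-chaperone that holds IRE1 with BiP, was the one that rose. It read -0.52, 0.01, -0.33 and 0.87 in ASXL1-MT cells and -0.31, 0.13, -0.01 and 0.75 in mock cells. Both 24 h arrays lay above the other 6. The difference was 1.23 ± 0.13 at 24 h against IL-3, a fold of 2.35, and 0.98 ± 0.13 at 24 h against 6 h (limma adjusted p = 0.0111 and 0.0451). At 2 h its difference was 0.49 ± 0.13 (adjusted p = 0.573).

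Hyou1 (GRP170), a large chaperone that also exchanges the nucleotide of BiP, read 0.16, -0.23, -0.15 and -0.82 in ASXL1-MT cells and 0.15, 0.27, 0.15 and -1.03 in mock cells. The 24 h arrays were the lowest in both cultures, and the difference was -1.07 ± 0.20 (limma adjusted p = 0.0304). Creld2, a stress-induced disulfide isomerase-like protein, read 0.07, -0.12, 0.14 and -0.54 in ASXL1-MT cells and -0.01, 0.01, 0.33 and -0.60 in mock cells. It was highest at 6 h and lowest at 24 h in both cultures. Its difference was -0.60 ± 0.11 at 24 h against IL-3 and -0.81 ± 0.11 at 24 h against 6 h (adjusted p = 0.0289 and 0.0455). Dnajb11 (ERdj3), a BiP co-chaperone that binds unfolded chains, read 0.26, 0.12, -0.11 and -0.38 in ASXL1-MT cells and 0.11, 0.20, -0.11 and -0.41 in mock cells. Both 24 h arrays lay below the other 6, with a difference of -0.58 ± 0.09 (adjusted p = 0.0224).

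The remaining 5 genes of the group passed no test. Hspa5 (BiP), the central chaperone and the usual readout of this stress response, read 0.03, -0.02, 0.26 and -0.18 in ASXL1-MT cells and -0.11, 0.02, 0.18 and -0.37 in mock cells. The 6 h arrays were the highest and the 24 h arrays the lowest. Its difference was 0.26 ± 0.10 at 6 h and -0.24 ± 0.10 at 24 h against IL-3 and -0.50 ± 0.10 at 24 h against 6 h, and none passed the test (limma adjusted p = 0.152, 0.151 and 0.0659). Hsp90b1 (GRP94), the HSP90 of this compartment, differed by 0.16 ± 0.13 at 6 h and -0.27 ± 0.13 at 24 h. Manf, a secreted stress-induced factor, differed by -0.26 ± 0.10 at 24 h, and Sdf2l1, a BiP cofactor, by -0.09 ± 0.11. Dnajc3 (p58IPK), an inhibitor of eIF2 alpha kinases, differed by 0.34 ± 0.12 at 24 h (adjusted p = 0.125).

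**Figure D3:**
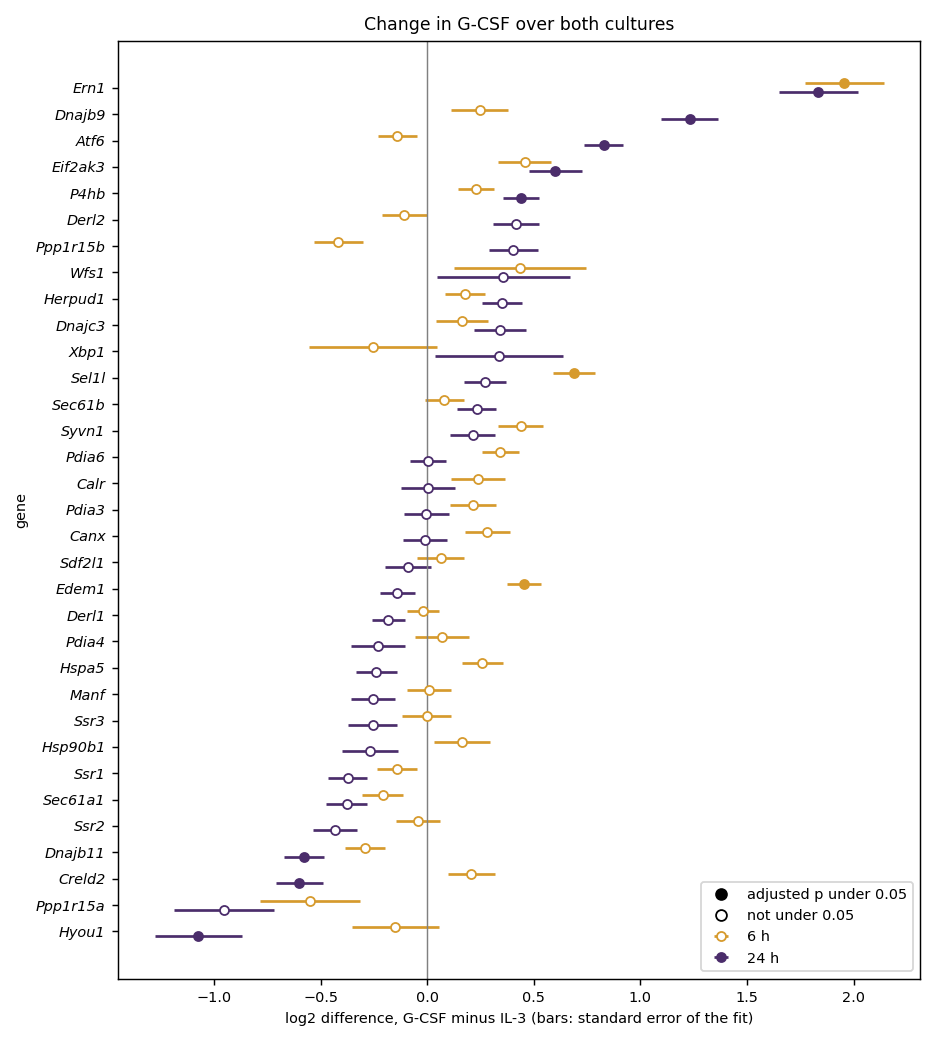
Difference of G-CSF minus IL-3 for 33 genes on the log2 scale (horizontal axis) over both cultures, with 6 h in orange above 24 h in purple for each gene, ordered by the 24 h value. Filled points have an adjusted p under 0.05 and bars are standard errors of the fit. Ern1 lies near 1.9 at both times, while Hyou1, at -1.07, is the lowest at 24 h.

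Among the 6 lectins and disulfide isomerases 1 rose at 24 h, where 14% of all genes were called higher. P4hb, the founding protein disulfide isomerase, read -0.10, -0.13, 0.15 and 0.40 in ASXL1-MT cells and -0.11, -0.12, 0.10 and 0.27 in mock cells. Its arrays in IL-3 and at 2 h were the lowest and those at 24 h the highest, with a difference of 0.44 ± 0.08 at 24 h (limma adjusted p = 0.0305). Calr and Canx, the lectin chaperones of new glycoproteins, and their partner Pdia3 differed by 0.0019, -0.01 and -0.0045 at 24 h. At 6 h all 6 genes of the group lay above 0, from 0.07 for Pdia4 to 0.34 ± 0.08 for Pdia6, beside 7695 of all 13223 genes. None of the 6 passed the test (smallest adjusted p = 0.0689).

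Of the 6 genes of degradation, 2 rose at 6 h against IL-3, where 9.16% of all genes were called higher, and 4 did not pass the test. Sel1l, the scaffold of the ubiquitin ligase that removes misfolded proteins, read -0.40, 0.01, 0.40 and -0.01 in ASXL1-MT cells and -0.18, 0.09, 0.40 and -0.03 in mock cells. The 6 h arrays lay above the other 6, and the difference was 0.69 ± 0.10 (limma adjusted p = 0.0262). Edem1, a mannosidase-like protein that marks glycoproteins for disposal, read 0.01, -0.01, 0.50 and -0.07 in ASXL1-MT cells and 0.12, -0.02, 0.54 and -0.08 in mock cells. Both 6 h arrays were again the highest. Edem1 was higher by 0.45 ± 0.08 at 6 h (adjusted p = 0.0383) and fell by 0.59 on the log2 scale at 24 h against 6 h (difference -0.59 ± 0.08, adjusted p = 0.0454). Syvn1, the ligase that Sel1l holds, differed by 0.44 ± 0.11 at 6 h (0.0648). Herpud1, a membrane adaptor of that ligase, differed by 0.36 ± 0.09 at 2 h and 0.35 ± 0.09 at 24 h (0.557 and 0.0644). Of the derlins, rhomboid-like proteins of the export channel, Derl2 differed by 0.42 ± 0.11 at 24 h (0.0596) and Derl1 by -0.18 ± 0.08 (0.164).

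None of the 5 measured genes of the import channel passed the test at any time. At 24 h 4 of the 5 lay below 0, beside 5884 of all 13223 genes. Ssr2, a subunit of the translocon-associated protein complex, read 0.09, 0.19, -0.02 and -0.26 in ASXL1-MT cells and -0.01, 0.05, 0.01 and -0.52 in mock cells. The 24 h arrays were the lowest in both cultures, with a difference of -0.43 ± 0.10 (limma adjusted p = 0.0515). Ssr1 of the same complex differed by -0.37 ± 0.09 and Sec61a1, the pore itself, by -0.38 ± 0.10 (0.0545 and 0.0595). Ssr3 differed by -0.26 ± 0.11 and Sec61b, a small pore subunit, by 0.23 ± 0.09. When each array was centred on its own median, 7 members were lower at 24 h in place of 3, against 5 higher. The same centring turned the counts over all genes to 1557 higher and 1837 lower, against 1854 and 1496. The added members were Ssr1 at -0.46, Ssr2 at -0.52, Sec61a1 at -0.46 and Ppp1r15a at -1.04. After quantile normalization again 4 were higher and 4 lower, Ppp1r15a being the added gene and Eif2ak3 the lost one. Over all 13223 genes that setting called 1247 higher and 1414 lower.

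The subunits that direct phosphatase 1 to eIF2 alpha, and so undo the action of PERK, differed in profile. Ppp1r15a (GADD34), the stress-induced subunit, read 0.52, 0.01, 0.34 and -0.48 in ASXL1-MT cells and 0.78, -0.01, -0.14 and -0.13 in mock cells. It was highest in IL-3 in both cultures, and its difference at 24 h was -0.95 ± 0.24 (limma adjusted p = 0.0549). Ppp1r15b (CReP), the constitutive subunit, read 0.05, -0.04, -0.32 and 0.34 in ASXL1-MT cells and 0.04, -0.13, -0.44 and 0.55 in mock cells. Both cultures were lowest at 6 h and highest at 24 h. Ppp1r15b rose by 0.82 ± 0.12 at 24 h against 6 h (adjusted p = 0.0462), and its difference at 24 h against IL-3 was 0.40 ± 0.12 (0.076). Wfs1, a membrane protein of calcium and stress control, varied by culture, from -0.55 to 0.52 in ASXL1-MT cells and from -0.39 to 0.37 in mock cells, and passed no test.

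Between neighbouring times in G-CSF the members moved as follows. At 6 h against 2 h, 2 of the 33 genes were higher, Ern1 by 1.62 ± 0.19 and Edem1 by 0.53 ± 0.08, and 0 were lower, which is 6.06% called against 14.3% of all genes, 8.65% higher and 5.66% lower (limma adjusted p = 0.0218 and 0.0312). With each array centred, or after quantile normalization again, Atf6 was also lower in that comparison, by -0.47 and -0.48. At 24 h against 6 h, 3 were higher (Dnajb9, Atf6 and Ppp1r15b) and 2 lower (Creld2 and Edem1), which is 15.2% called against 5.12% of all genes, 2.8% higher and 2.32% lower. In that comparison 23 of the 33 genes lay below 0, and their median was -0.23 against -0.0042 for all genes. None of the 5 calls held after quantile normalization again, in which 13 genes of all were higher and 10 lower.

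The members were then read by their promoters. Of the 10 measured genes with either form of the stress element, 9 lay above 0 at 6 h, with a median difference of 0.22. None was called, where 16.1% of all genes were. Also above 0 at 6 h were 11 of 16 measured members in the promoter table without the element. Over all 13223 genes 7695 were, with a median of 0.11. At 24 h 5 of the 10 lay above 0 and 5 below, and 2 were called, both lower (Creld2 and Dnajb11), where 14% of all genes were called higher and 11.3% lower. The 16 measured genes in the promoter table without the element had 3 called higher at 6 h and 4 called higher at 24 h, none lower at either time, where 9.16% of all genes were called higher at 6 h and 14% at 24 h, with medians of 0.15 and 0.25. At 24 h against 6 h the medians were -0.29 with the element and -0.14 without it. Hyou1, called lower at 24 h, and Atf6, called higher, were in neither set because the promoter table lacks them. The table also lacks Sec61a1, Derl1, Ssr2, Manf and Ppp1r15b. These counts describe the genes, and the difference between the sets was not tested.

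Other probe sets of a gene gave a check within the arrays. The 33 genes had 81 probe sets, 68 of them at an estimated level of 8 or more, with up to 6 for a gene and 10 genes with a single one. Tested on their own with adjustment over all 34945 single-symbol probe sets, 3 of the 81 passed at 24 h, those used for Ern1, Dnajb9 and Atf6 (limma adjusted p = 0.0384, 0.0421 and 0.0494), against 5.14% of all probe sets. All 5 Ern1 probe sets were higher at 6 h, by 1.07 to 2.51. At 24 h its bright pair gave 1.83 and 0.61 and the dim ones 0.51, 0.11 and -1.82. For Atf6 a probe set opposed the others at 24 h, with 0.83, 0.57 and -0.53, all at a level of 8 or more. The Hyou1 probe sets all lay below 0 at 24 h (-1.07, -0.55 and -0.38), and the 5 of Sel1l all lay above 0 at 6 h (0.10 to 0.74). Both Edem1 probe sets were above 0 at 6 h (0.45 and 0.24) but had opposite signs at 24 h (-0.14 and 0.38). Eif2ak3 had dim further probe sets, with 0.19 and 0.03 at 24 h. Dnajb9, Dnajb11, Creld2 and P4hb had a single probe set each.

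**Figure D4:**
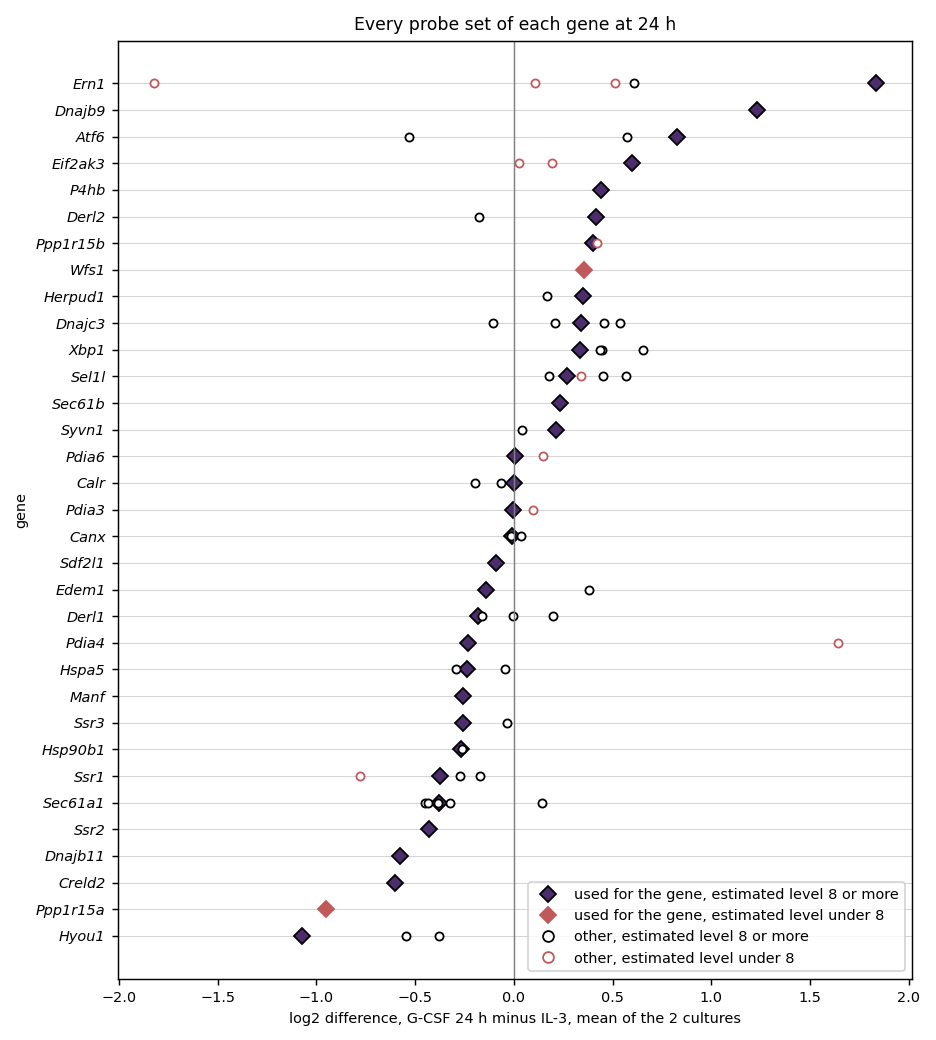
Every probe set of the 33 genes, as log2 difference of G-CSF at 24 h minus IL-3, mean of both cultures (horizontal axis), with genes in the order of the probe set used (diamonds). Circles are the other probe sets, and red marks an estimated level under 8. Most bright probe sets lie near the diamond of their gene, while bright ones of Atf6, Dnajc3, Derl1, Derl2, Edem1 and Sec61a1, and dim ones of Ern1 and Pdia4, lie clearly across 0 from it.

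When the probe sets of a gene were averaged, 3 genes were higher at 24 h (Dnajb9, P4hb and Pdia4, the last by 0.71 through a dim probe set at 1.64) and 3 lower (Hyou1 by -0.67, Creld2 and Dnajb11). Over all 13223 genes the mean called 1424 higher and 999 lower at 24 h. Ern1 at 0.25, Atf6 at 0.29 and Eif2ak3 at 0.27 then missed the threshold (limma adjusted p = 0.565, 0.374 and 0.80). At 6 h Ern1 was called with the mean too, at 1.57 (0.0398), and Sel1l and Edem1 were not (0.0618 and 0.131).

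The study asked what the ASXL1 mutant changes in these cells. Over the 4 time points, none of the 33 genes differed between ASXL1-MT and mock in limma, and none of the 13223 genes did (0%). In this test the time points stood in for replicates of each vector, because the labels name no repeat transductions. At an unadjusted p under 0.05 there were 0 of the 33 and 843 of all genes. The members' differences ran from -0.22 ± 0.09 for Eif2ak3 to 0.16 ± 0.08 for Derl2 (adjusted p = 0.789 and 0.79), with a median of 0.02. At single time points, with 1 array a side and no test, no member differed by 1 or more on the log2 scale, while 12.3% to 12.5% of all genes did. The members' median difference was 0.02 in IL-3, -0.04 at 2 h, -0.03 at 6 h and 0.13 at 24 h, where 27 of the 33 genes lay above 0, against a median of 0.0055 for all genes.

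The difference between the cultures at 24 h against that at the other times was tested through an added term in limma. None of the 33 genes and none of all genes passed (0%), with 0 and 767 at an unadjusted p under 0.05. The values ran from -0.56 ± 0.49 for Wfs1 to 0.67 ± 0.42 for Xbp1 (adjusted p = 0.995 and 0.989). Above 0 lay 25 of the 33 genes and 6813 of all 13223. Wfs1 was read from a single probe set at an estimated level of 6.2. The other 3 Xbp1 probe sets gave 0.16, 0.18 and 0.25, and the mean of its probe sets gave 0.31 ± 0.18. Ern1 had the smallest unadjusted p among the members, with 0.53 ± 0.18 (adjusted p = 0.872).

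**Figure D5:**
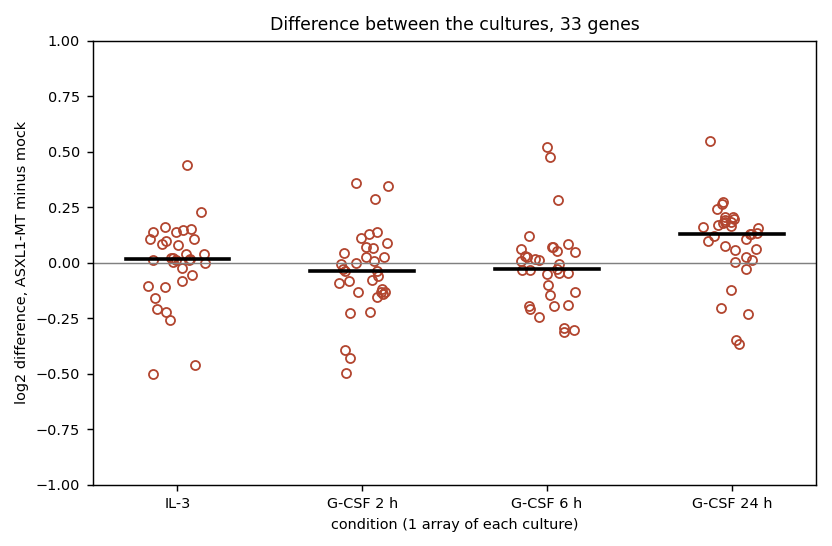
Difference of ASXL1-MT minus mock on the log2 scale (vertical axis) for 33 genes in each condition (horizontal axis), 1 array of each culture per condition, with 1 circle per gene and a black line at the median. All circles lie within 0.55 of 0 on the high side and -0.50 on the low side, and the median at 24 h is 0.13.

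Other genes of the same pathways were read from 5 lists of 101 genes, of which 94 were tested. None of them passed at 2 h. Among 18 genes of stress signalling, Atf4, the transcription factor made when eIF2 alpha is phosphorylated, and its target Trib3, a pseudokinase, fell at 6 h, with differences of -1.54 ± 0.12 and -1.37 ± 0.11 (limma adjusted p = 0.0133 and 0.0134). Mbtps2, the protease that makes the final cleavage of ATF6, differed by -0.62 ± 0.09 (0.0277). Creb3l2, a relative of ATF6, rose by 1.18 ± 0.19 at 6 h and 1.43 ± 0.19 at 24 h (0.0315 and 0.0152). In this list 1 gene was higher and 3 lower at 6 h (22.2% called, against 16.1% of all genes), and 3 were higher and 2 lower at 24 h (27.8%, against 25.3%). Those at 24 h were Creb3l2, Eif2ak2 (0.55) and Nck1 (0.48), against Atf4 (-0.56) and Trib3 (-0.55).

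The list of 23 tested factors of oxidative folding had 6 higher and 2 lower at 24 h, which is 34.8% called against 25.3% of all genes. Ero1b and Ero1a, the oxidases that recharge the disulfide isomerases, rose by 1.21 ± 0.10 and 0.76 ± 0.08, and Qsox1, another sulfhydryl oxidase, by 1.03 ± 0.10 (limma adjusted p = 0.00836, 0.0113 and 0.0101). Txndc5 and Tmx1, both with thioredoxin domains, differed by -0.50 and -0.48. At 6 h Sdf2 (0.67) and Cnpy2 (0.50) were higher and none lower, which is 8.7% called against 16.1% of all genes.

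Among 20 further genes of degradation, 3 were higher and 0 lower at 6 h, which is 15% called against 16.1% of all genes. At 24 h 5 were higher and 3 lower, which is 40% against 25.3%. Svip, a small protein that binds the ATPase VCP, rose by 1.52 ± 0.17 at 6 h and 1.81 ± 0.17 at 24 h (limma adjusted p = 0.018 and 0.00907). Edem2, which starts mannose trimming, rose by 0.69 ± 0.11 and 1.17 ± 0.11 (0.0306 and 0.00904). Faf2 was higher at 6 h (0.51) and Ubxn4 at 24 h (0.66). Vcp itself, which pulls proteins out of the membrane, and its cofactor Nploc4 fell at 24 h, with differences of -0.56 ± 0.09 and -0.60 ± 0.10 (0.02 and 0.0237), as did the ubiquitin-conjugating enzyme Ube2j2 (-0.52).

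No gene of the import and glycosylation lists was higher at 6 or 24 h. Of 17 genes of translocation and signal peptide handling, Srprb, a subunit of the signal recognition particle receptor, was lower at 6 h (-1.09 ± 0.20, limma adjusted p = 0.0384), which is 5.88% called against 16.1% of all genes. At 24 h 3 were lower, Sec63 (-0.73 ± 0.11), Srp19 (-0.52) and Srpr (-0.46), which is 17.6% called against 25.3%. Of 16 genes of N-glycosylation none was called at 6 h and 2 were lower at 24 h (12.5%), Mogs (-0.64 ± 0.10), the first glucosidase, and Rpn1 (-0.62 ± 0.09), a subunit of the oligosaccharyltransferase. The median difference at 24 h was -0.22 in the translocation list and -0.07 in the glycosylation list, against 0.27 in the oxidative folding list and 0.09 over all genes. These differences between lists were not tested.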

How the data were processed

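Total RNA of 8 samples, 1 per vector and condition, was hybridised to Affymetrix mouse arrays. Array features were read with MAS 5.0, per the labels. RMA is named, with no version, in the submitters' processing notes. The deposited table of 45037 probe sets holds log2 values centred on each probe set's median over the 8 arrays (every median within 5.0e-07 of 0). The sources used here do not give the log base, the centring or how arrays were scaled. Base 2 was assumed. Values of 1 probe set spanned up to 9.06, too wide for a base of 10, and with a natural log every difference would be 1.44 times larger. The number of arrays, 1 per condition, limits the precision.

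The level before centring was estimated from the rounding step of the stored numbers. On 8000 simulated probe sets its median absolute error was 0.681, with 96.7% on the correct side of 8. At the median estimate of the simulated probe sets, 80.3% were on the correct side. The filter as used, on the second-highest array, was not simulated. The platform annotation pairs 34945 probe sets with a single symbol, 932 with several and 9160 with none. A gene was read from the probe set with the highest estimate, rounded, with ties going to the more specific type and then the first name. Above a level of 8 the rounding step hardly separates probe sets. The one used there was therefore often chosen by type and name, and is not known to be the brightest. Genes were tested where their second-highest array reached 6.29. Tests used limma 3.58.1 in R 4.3.3 on vector and time point, with residual degrees of freedom of 3, or 2 with the added 24 h term, and a prior worth 1.11, two-sided, and were tested on simulated data. All members were named, and up to 3 called genes per direction of each further list. Members, lists, tests and alternatives were chosen with earlier results of these data known. Alternatives were the mean of probe sets, other filters, other scalings, single probe sets, the 4 arrays of a comparison and leaving out each array.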

Additional observations from a re-analysis of the deposited data

How the results depend on the processing

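The counts of called members depended on the settings, and no call reversed in the alternatives run. Many of these could not reverse one. Other filters, the 4 arrays and leaving out an array of another time point left each difference unchanged. So did single probe sets, where a gene was read from the one used. Other probe sets of Atf6, Ern1 and Edem1 had the opposite sign in a comparison where the gene was called. At 6 h against IL-3 (3 higher, 0 lower) the mean of all probe sets and no filter each left 1 higher, the filter at 8.28 gave 6 higher and 2 lower, and single probe sets and the 4 arrays of the comparison gave 0. At 24 h against IL-3 (5 higher, 3 lower) the mean and no filter each left 3 higher, and no filter 0 lower. The stricter filter gave 10 higher and 6 lower of 31, where over all genes it gave 2235 and 2029 of 7791. Centring each array gave 7 lower, single probe sets 3 higher and 0 lower, and the 4 arrays 0. At 6 h against 2 h (2 higher, 0 lower) the mean, no filter, single probe sets and the 4 arrays gave 0 higher, the stricter filter 7 higher and 2 lower, and centring and quantile normalization 1 lower each. At 24 h against 6 h (3 higher, 2 lower) the mean, no filter, quantile normalization, single probe sets and the 4 arrays gave 0 in both directions and the stricter filter 4 higher and 8 lower. Leaving out 1 array gave 0 to 3 higher and 0 to 2 lower at 24 h against IL-3 and 0 to 0 elsewhere. The time point left with 1 array was then assumed to vary like the others. Counts at 2 h, between the vectors and for the added 24 h term stayed 0 in every alternative run, and the added term could not be fitted without either 24 h array. The alternatives differ in arrays, in genes tested and in the spread the fit estimates. With no filter the standard error of Edem1 at 6 h was 0.1059, against 0.0814. Why the counts changed was not tested.

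Over all genes, 1211 were higher and 913 lower at 6 h. No filter gave 278 and 269, the stricter one 1998 and 1456 of 7791, and the mean of probe sets 815 and 626. Single probe sets (7420 at an unadjusted p under 0.05) and the 4 arrays (3491) gave 0. At 24 h 1854 were higher and 1496 lower. No filter gave 1031 and 735, the stricter filter 2235 and 2029 of 7791, and the mean of probe sets 1424 and 999. Centring gave 1557 and 1837, quantile normalization 1247 and 1414, and single probe sets 1114 and 683. The 4 arrays gave 0 (4029 at an unadjusted p under 0.05). At 24 h against 6 h 370 were higher and 307 lower, against 97 and 33 with the mean of probe sets, 13 and 10 after quantile normalization, 1150 and 1303 with the stricter filter, and 0 with no filter (3372 at an unadjusted p under 0.05), single probe sets (5929) or the 4 arrays (2227). At 6 h against 2 h 1144 were higher and 749 lower, against 623 and 441 with the mean, 1983 and 1321 with the stricter filter, and 0 with no filter (4118), single probe sets (7107) or the 4 arrays (2842). At 2 h the stricter filter called 8 higher and 12 lower, centring 1 lower and quantile normalization 2 lower. Leaving out 1 array left 0 calls over all genes except at 24 h against IL-3, with 1226 higher and 915 lower without an array at 2 h and 1117 and 847 without one at 6 h. The fit itself compares times within each culture and vectors within each time point. Beyond it, no paired analysis was possible because the labels give no replicate numbers. Dim probe sets limit the readings of Ern1, Eif2ak3, Pdia4 and Wfs1.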
